A study of Mus musculus with 5 samples.

Results

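Distal peaks of IRF4 and IRF8 that held an interferon-stimulated response element (ISRE) without the other known IRF elements were examined in mouse B cells. They were chosen by position and sequence alone. The centre of the peak lay more than 1000 bp from every start of a protein-coding gene, and the 100 bp on either side of it, 201 bases in all, held the ISRE core GAAANNGAAA on either strand. Windows that also held the ETS-IRF composite GGAANNGAAA or the AP-1 consensus TGASTCA were left out. The rule found 309 peaks among the 5590 deposited in 5 lists, and these merged into 268 places in the genome.

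The series used chromatin immunoprecipitation followed by sequencing (ChIP-seq), in which the DNA bound by a factor is enriched with an antibody and counted as sequenced tags. All cells came from wild-type C57BL/6 mice. Germinal centre (GC) B cells were sorted on day 13 after immunisation with NP-KLH, a hapten coupled to a carrier protein, and immunoprecipitated with the IRF8 antibody C-19. Naive splenic B cells cultured with lipopolysaccharide (LPS), a bacterial Toll-like receptor ligand, at 10 µg/ml gave the other libraries: IRF8 (C-19) at 72 h, IRF8 at 48 h, IRF4 (antibody M-17) at 72 h and IRF4 at 48 h. With 1 library in each group, nothing here could be set against the spread between replicates: comparisons are of libraries, and the intervals given cover counting error only. The header of the IRF8 72 h list names a second replicate, and no input library is named for any list. GC peaks came from another caller and from cells that were flash frozen and handled by a service company, so that caller, handling and cell type cannot be told apart. The LPS libraries held 3065426 to 4375858 tags, of which 0.18% to 0.82% fell in peaks. No expression was measured, so the labelled cell types could not be set against their markers.

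Interferon regulatory factors read the 4 bases GAAA, here called a unit. The ISRE places 2 units in tandem with 2 bases between them, and was named for its part in the induction of antiviral genes by interferon. IRF4 and IRF8 bind DNA weakly alone; in B cells the ETS factor PU.1 helps them onto the composite element and BATF with a Jun protein onto AP-1 sites with an IRF unit nearby, and the ISRE is the element that needs neither partner. High IRF4 goes with plasma cell formation, and IRF8 is abundant in GC B cells.

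The sequences below are read from the mm9 genome (NCBIM37) in the direction of the core, 5′ to 3′, with the core in capitals and 15 bases on each side. They are shown because they were called in 4 lists, or lie by Irf4 and Prdm1, the genes of IRF4 itself and of the plasma cell regulator Blimp-1. Each is named by the protein-coding gene with the nearest start.
Stoml1 (chr9:58119114-58119153, + strand): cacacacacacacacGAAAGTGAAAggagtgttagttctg
Oxr1 (chr15:41664088-41664127, + strand): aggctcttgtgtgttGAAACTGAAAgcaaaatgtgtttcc
Mrpl39 (chr16:84621721-84621760, - strand): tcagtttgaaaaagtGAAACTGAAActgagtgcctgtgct
Il2rb (chr15:78340749-78340788, - strand): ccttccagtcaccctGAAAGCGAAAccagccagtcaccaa
Prdm1, upstream (chr10:44249397-44249436, - strand): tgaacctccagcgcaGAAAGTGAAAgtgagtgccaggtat
Prdm1, intron (chr10:44164326-44164365, + strand): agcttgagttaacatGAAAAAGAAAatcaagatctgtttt
Irf4, nearer place (chr13:30830324-30830363, - strand): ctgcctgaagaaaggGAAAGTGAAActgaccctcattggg
Irf4, farther place (chr13:30824750-30824789, + strand): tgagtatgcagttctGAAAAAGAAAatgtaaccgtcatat

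A second set carries the main difference found among the members. In these places the unit recurs at the spacing of the element well past the pair that the rule asks for, and the whole run is shown with the units in capitals and the 2 bases between them, the spacer, in lower case. Such a run of 4 or more units is called an array here, a cut made after the values were seen.
Trim30a (chr7:111553160-111553283, + strand): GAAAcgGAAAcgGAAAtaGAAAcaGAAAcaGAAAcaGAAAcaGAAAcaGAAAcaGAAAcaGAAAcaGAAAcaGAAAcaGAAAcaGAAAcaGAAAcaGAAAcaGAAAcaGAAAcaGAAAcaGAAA
Mtap4 (chr9:109856138-109856219, - strand): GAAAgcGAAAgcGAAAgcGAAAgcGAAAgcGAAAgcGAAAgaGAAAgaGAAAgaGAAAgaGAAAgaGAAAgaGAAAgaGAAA
Hes1 (chr16:30032878-30032965, - strand): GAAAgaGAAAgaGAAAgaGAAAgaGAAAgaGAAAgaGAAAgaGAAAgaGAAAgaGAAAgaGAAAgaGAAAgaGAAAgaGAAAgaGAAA

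Members were most frequent in the GC list and at IRF8 72 h. Members made up 153 of 1344 distal GC peaks, or 11.4% (exact Clopper-Pearson 95% interval 9.74% to 13.2%), and 76 of 944 distal IRF8 peaks at 72 h, or 8.05% (6.40% to 9.97%). They made up 7 of 203 at 48 h for IRF8, or 3.45% (1.40% to 6.98%). For IRF4 they made up 31 of 754 at 72 h, or 4.11% (2.81% to 5.79%), and 42 of 1420 at 48 h, or 2.96% (2.14% to 3.98%). Windows of the same length 1000 bp to either side met the same motif rule in 2.79% of cases for GC, 2.86% for IRF8 at 72 h, 2.74% for IRF8 at 48 h, 3.26% for IRF4 at 72 h and 2.86% for IRF4 at 48 h. The share at peaks was thus 4.08 times that of the flanks in GC B cells and 2.81 times at IRF8 72 h, with intervals that do not overlap those of the flanks. In the IRF8 48 h list and both IRF4 lists the interval at peaks overlapped that of the flanks, so an excess there was not detectable with this window. With 50 bp on either side of the centre, IRF4 at 72 h also stood above its flanks, with 24 of 754 peaks (3.18%, 2.05% to 4.70%) against 1.06% of flanks (0.609% to 1.72%). IRF4 at 48 h did not, with 1.69% of peaks against 1.52% of flanks, nor did IRF8 at 48 h, with 4 of 203 peaks against 4 of 401 flanks. Before the exclusion of the other elements, 422 of 4665 distal windows (9.05%) and 291 of 9315 flanks (3.12%) held the core. The composite was in 16.4% and the AP-1 consensus in 16.0% of the distal windows.

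**Figure D1:**
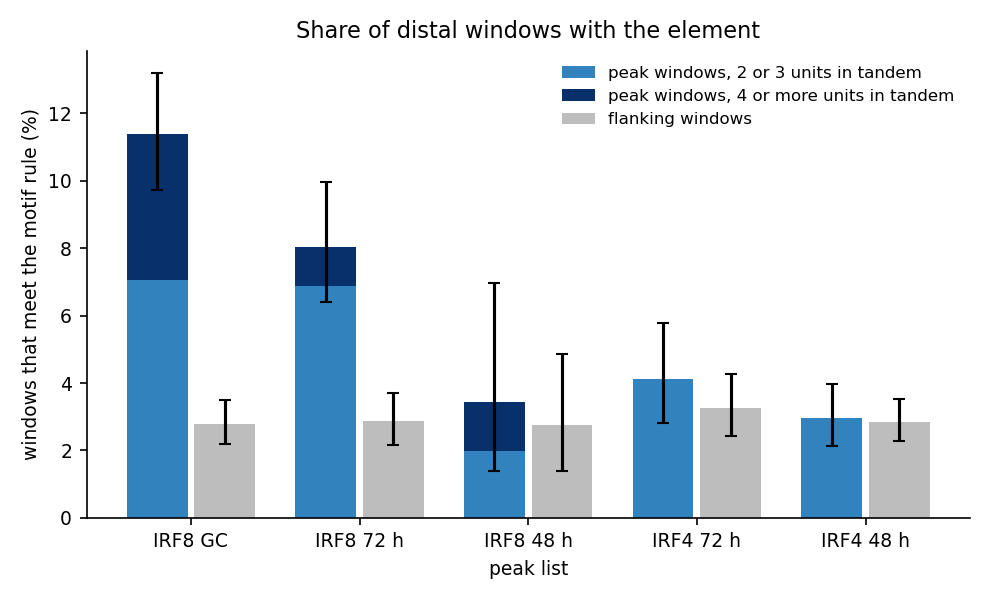
Percent of distal windows that meet the motif rule (y axis) in each peak list (x axis), for peak windows (blue, split by the number of units in tandem) and flanking windows 1000 bp away (grey), with exact 95% intervals. The GC bar reaches 11.4% and the IRF8 72 h bar 8.05%, while the flanks stay between 2.74% and 3.26%, and the dark part for arrays is absent from both IRF4 bars.

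Arrays were found under IRF8 and in no IRF4 peak. They held 58 of the 153 GC members (37.9%, 30.2% to 46.1%), 11 of the 76 IRF8 members at 72 h (14.5%, 7.45% to 24.4%) and 3 of the 7 at 48 h. None of the 73 IRF4 members had one, which allows a share of up to 4.93% (exact upper bound). The IRF4 lists share places, so some members count in both and this bound is too low. None of the 1420 and 754 distal IRF4 peaks had an array with the other elements counted. In the flanks, 3 of 9315 windows held an array. The longest run among members had 28 units in both the GC and the IRF8 72 h lists, and 3 units in the IRF4 lists. Among the 268 places, 63 were arrays, of which 62 were called in GC B cells, 11 in an LPS IRF8 list and 10 in both. The GC count is largely set by the selection, since 58 of the 72 members with arrays were GC members. Of the other 205 places, 115 were called in GC B cells (56.1%, 49.0% to 63.0%) and 73 in an LPS IRF8 list (35.6%).

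Without windows that hold an array, a count added after the data were seen, 95 of 1265 distal peaks in GC B cells were members (7.51%, 6.12% to 9.10%), as were 65 of 931 for IRF8 at 72 h (6.98%, 5.43% to 8.81%). For IRF8 at 48 h it was 4 of 199 (2.01%, 0.550% to 5.07%), against 2.74% of its flanks. The GC and IRF8 72 h shares were then 2.76 and 2.44 times those of their flanks.

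The arrays are low-complexity sequence, and their copies in the genome bear on how tags can be placed. The median 24-base word of an array member's window occurred 4.5 times in the genome (1 to 5138), and 46 of the 72 array members were multi-copy, meaning that this median was above 1. Of the 237 other members 8 were multi-copy. Among the arrays called in LPS cells, the Hes1 array had a single-copy window and the Trim30a and Mtap4 arrays had median word copies of 2.5 and 2. The part of repeated sequence in the calls was not tested.

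The genome itself held 3981 arrays of 4 or more units, and the share of them under a GC peak was higher for longer arrays. GC peaks covered 51 of 2067 arrays of 4 to 5 units (2.47%), 36 of 961 with 6 to 9 (3.75%), 79 of 832 with 10 to 19 (9.50%) and 38 of 121 with 20 or more (31.4%, 23.3% to 40.5%). IRF8 peaks covered 19 arrays in all at 72 h and 5 at 48 h. The intervals of the 2 shortest classes overlap (1.84% to 3.23% and 2.64% to 5.15%), and those of the longer classes lie apart. These intervals, and those by spacer below, treat arrays as independent. Several arrays can lie under the same peak, so the intervals are too narrow. No array lay under an IRF4 peak at either time.

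**Figure D2:**
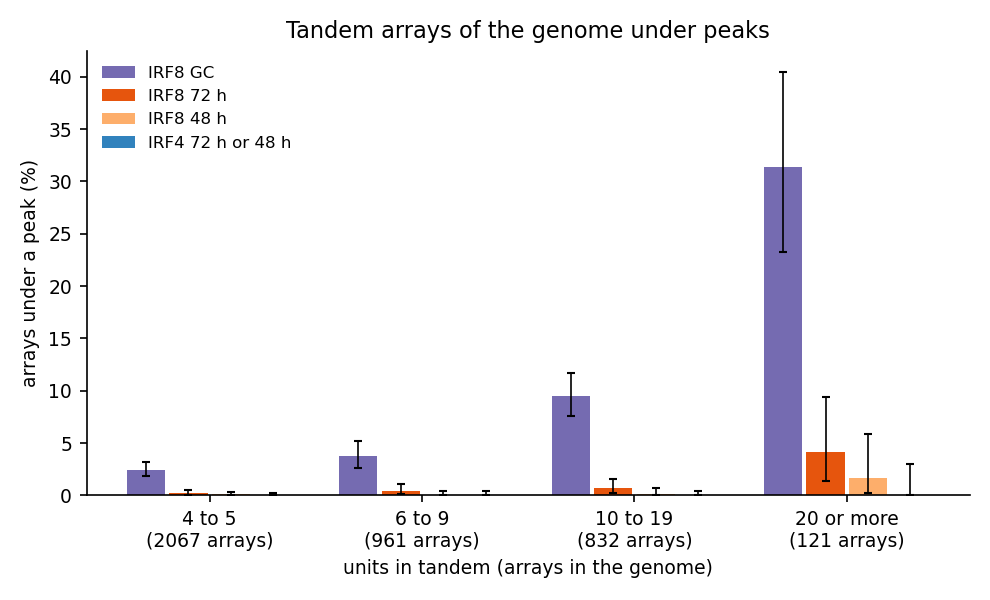
Percent of the genome's tandem arrays that lie under a peak (y axis) by the number of units in the array (x axis, with the number of such arrays), for GC, IRF8 72 h, IRF8 48 h and the IRF4 lists together, with exact 95% intervals. The GC bars step up from 2.47% to 31.4% with length, and the IRF4 bars are at 0.

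Arrays of like length also differed by their spacer. Among arrays of 10 or more units, those whose most frequent spacer was CA were under a GC peak in 7 of 7 cases, under an IRF8 72 h peak in 5 of 7 and under an IRF8 48 h peak in 2 of 7. Arrays with GA spacers were under a GC peak in 80 of 270 cases (29.6%, 24.3% to 35.5%) and under an IRF8 72 h peak in 6. Arrays with GG spacers were under a GC peak in 24 of 205 cases (11.7%, 7.65% to 16.9%). Arrays with AA spacers, the largest group, were under a GC peak in 4 of 342 cases (1.17%, 0.320% to 2.97%), and those with AG in 1 of 121 (0.826%). GG and AA arrays were under no LPS peak.

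The CA arrays were the longest, with a median of 20 units. The other groups were close, with a median of 14 units for GA, 15 for GG, 13 for AA and 12 for AG. Copy number differed: 96.3% of GA, 98.0% of GG, 82.7% of AA and 86.0% of AG arrays were multi-copy. Of the single-copy arrays, 1 of 10 with GA and 0 of 59 with AA were under a GC peak, and the interval for GA (0.253% to 44.5%) overlaps that for AA (up to 6.06%). The part of copy number in the spacer difference was not tested beyond these counts.

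The CA arrays are few and were chosen here after their values were seen. The Trim30a array, 7.50 kb downstream of the start of an interferon-stimulated gene of the TRIM family, had 42.4 IRF8 tags, scaled to 10000000 per library as are all tags below, at 72 h and 38.8 at 48 h. The array near 2310014L17Rik, a gene known by its clone name, had 68.5 at 72 h and 41.1 at 48 h. The arrays near Gm16496, Speer2 and Col1a2 were in the IRF8 72 h list with 45.7, 35.9 and 29.4 tags, and not in the 48 h list. The 2 arrays near Dbc1 and Gm2058 were called in GC B cells alone. The median 24-base word of 5 of the 7 occurred 127 or 131 times in the genome, copies within the same array included. Tags inside these repeats may therefore not be placed uniquely, which was not tested.

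The spacer also differed between members and flanks where there were only 2 or 3 units, although the rule leaves these bases free. The GT and CT group was formed after the values were seen, and the counts are of cores, of which a window can hold more than 1. GT or CT stood between the units in 45 of 116 cores of GC members (38.8%, 29.9% to 48.3%), in 30 of 75 of IRF8 members at 72 h (40%, 28.9% to 52.0%) and in 26 of 78 of the IRF4 members (33.3%, 23.1% to 44.9%). In flanking windows that met the rule they stood in 36 of 275 cores (13.1%, 9.34% to 17.7%). The AA spacer had the reverse order, with 12.1% of GC, 10.7% of IRF8 72 h, 16.7% of IRF4 and 26.5% of flank cores. The pooled IRF4 interval lies above that of the flanks, but the IRF4 lists share places, so some cores count in both. By list it was 11 of 34 cores at 72 h (32.4%, 17.4% to 50.5%), which overlaps the flanks, and 15 of 44 at 48 h (34.1%, 20.5% to 49.9%). Among IRF4 members found in another list it was 11 of 25 at 72 h and 8 of 17 at 48 h, and among those in no other list 0 of 9 at 72 h and 7 of 27 at 48 h. For AA the IRF4 interval (9.18% to 26.8%) overlaps that of the flanks (21.4% to 32.2%).

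The base after the second unit was counted in the same cores. It was C or G in 43 and 43 of 116 GC cores, in 19 and 33 of 75 IRF8 72 h cores and in 18 and 32 of 78 IRF4 cores. In the flanks it was C in 44, G in 73 and A in 112 of 273 cores. No intervals are given for these counts, so no difference from the flanks is claimed. The Prdm1 upstream and nearer Irf4 cores printed above, both GC members, have the GT spacer, and the Prdm1 intron and farther Irf4 cores, both IRF4 48 h members, have AA. These are single cores: over the lists, the GT or CT intervals of GC and IRF4 48 h members overlap.

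Among IRF8 72 h members with 2 or 3 units, those also under a GC peak carried GT or CT in 18 of 26 cores (69.2%, 48.2% to 85.7%). Those not under a GC peak carried it in 12 of 49 (24.5%, 13.3% to 38.9%). None of the 26 had AA, and 8 of the 49 did. The 26 cores lie in 19 windows. Of these, 3 hold nearly the same sequence with the GT spacer, near Slc22a8, Gm11232 and Vmn2r83 (printed below). The intervals treat cores as independent, so they are too narrow. By place, counting the core nearest the centre, GT or CT was in 24 of 47 places called in 2 or more lists (51.1%) and in 49 of 158 called in 1 list (31.0%, 23.9% to 38.9%). The intervals of these last shares overlap (36.1% to 65.9% for the first).

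Other motifs were searched in the same windows on both strands. The STAT site TTCNNNGAA was in 12 of 309 members (3.88%), in 6.47% of all distal windows and in 29 of 270 flanks that met the rule (10.7%, 7.31% to 15.1%). The PU.1-type ETS site GAGGAA was in 22.3% of members (17.8% to 27.4%), in 28.9% of all distal windows and in 18.1% of those flanks. The rule leaves out this site where it is part of a composite. All distal windows keep the composites, so the first 2 of these shares are not alike. The octamer ATGCAAAT, read by the B cell factors Oct-1 and Oct-2, was in 2 members. Alternating CA or TG runs of 24 bases, as next to the Stoml1 core, were in none of 95 GC members with 2 or 3 units, in 9 of 65 at IRF8 72 h (13.8%), in 4 of 31 at IRF4 72 h (12.9%) and in 2 of 42 at IRF4 48 h. Over all distal windows they were in 8.79% at IRF8 72 h (7.06% to 10.8%), 4.93% at IRF8 48 h, 0.744% in GC, 2.52% at IRF4 72 h and 0.704% at IRF4 48 h, and in 2.23% of flanks.

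The nearest core more often lay within 25 bp of the centre in IRF8 72 h members than in flanks that met the rule. For the other lists these intervals overlapped those of the flanks. A window with several cores has a shorter nearest distance by construction. Of the IRF8 72 h members, 21 of 76 (27.6%) held 2 or more cores, as did 74 of 153 GC members (48.4%) and 11 of 270 of those flanks (4.07%). The distances below include these windows. Within 25 bp of the centre lay the nearest core of 58 of 153 GC members (37.9%, 30.2% to 46.1%), 38 of 76 IRF8 72 h members (50%, 38.3% to 61.7%), 4 of 7 IRF8 48 h members, 13 of 31 IRF4 72 h members (41.9%, 24.5% to 60.9%) and 15 of 42 IRF4 48 h members (35.7%, 21.6% to 52.0%). In flanks that met the rule it was 74 of 270 (27.4%, 22.2% to 33.1%). Within 50 bp it was 23 of 31 IRF4 72 h members (74.2%, 55.4% to 88.1%), against 138 of 270 flanks (51.1%, 45.0% to 57.2%), which overlap by little. Over all distal peaks, cores outside arrays numbered 2.73 per 100 peaks in a 50 bp bin within 100 bp of the IRF8 72 h centres and 0.861 at 400 to 600 bp from them. For IRF4 at 72 h these densities were 2.06 and 0.895, and for IRF4 at 48 h 1.25 and 0.881.

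**Figure D3:**
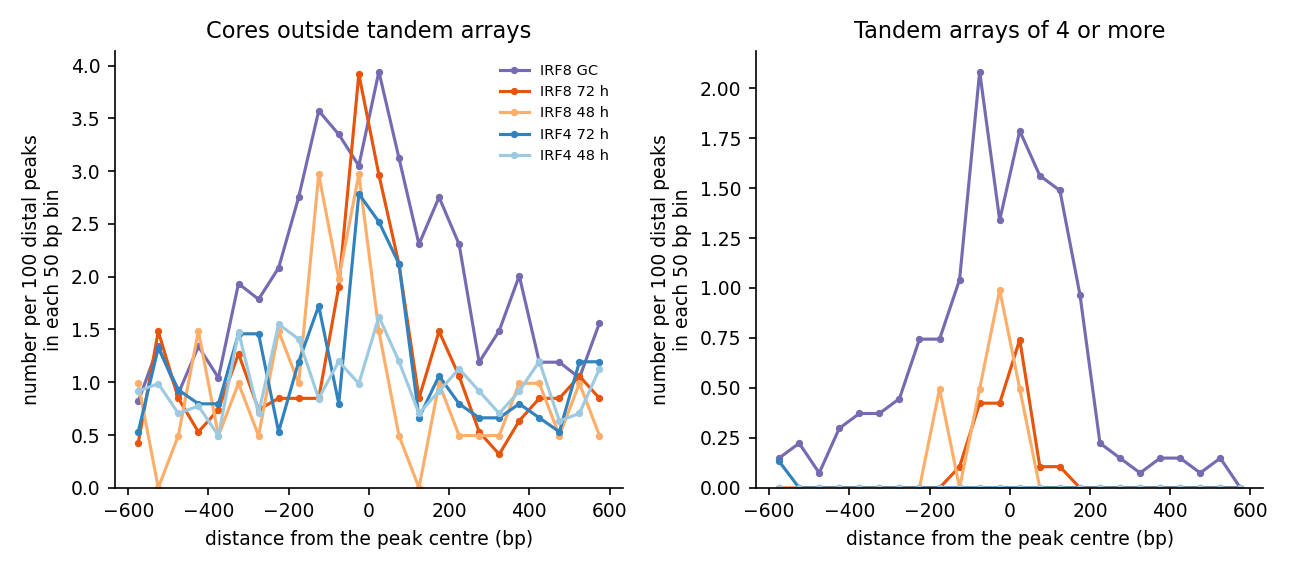
Number per 100 distal peaks in each 50 bp bin (y axis) against the distance from the peak centre in bp (x axis), for cores outside arrays (left) and arrays of 4 or more units counted once each (right), by list. Within 100 bp the mean of the left panel is 3.37 for GC, 2.73 for IRF8 72 h and 1.25 for IRF4 48 h, and no IRF4 peak has an array within 100 bp.

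GC intervals are wide, with a median of 1155 bp for members against the fixed 500 bp of the LPS lists, and their centre is not a summit. Of the 29 IRF8 72 h members that overlapped a GC interval, all had their core inside that interval, but only 12 of those GC intervals were members themselves. The 2 centres lay a median of 178 bp apart. A count of GC members within 100 bp of the centre therefore misses cores elsewhere in the interval.

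Most member places were called in 1 list. Of the 268 places, 211 (78.7%, 73.3% to 83.5%) were called in 1 list, 39 in 2, 13 in 3, 5 in 4 and none in all 5. The share called in 2 or more lists was 21.3% (16.5% to 26.7%), near the 23% of all 3452 distal places. It was 53.6% (48.5% to 58.6%) for the 392 places with the composite alone and 31.9% (27.9% to 36.1%) for the 508 with the AP-1 consensus alone. GC was the sole list of 136 member places (50.7%, 44.6% to 56.9%), against 30.5% (29.0% to 32.1%) of all distal places, 8.16% of composite and 10.2% of AP-1 places. Such a place is a member through its GC peak, so this share follows from the 153 GC members among the 309. Of the places without arrays, GC was the sole list of 84 of 205 (41.0%, 34.2% to 48.0%).

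In LPS cells a larger share of the ISRE places was called for IRF8 alone than of distal places at large, while the share called for both factors was near that of all. Of 132 member places called in LPS cells, 65 were in IRF8 lists alone (49.2%, 40.4% to 58.1%), 48 in IRF4 lists alone (36.4%) and 19 in lists of both (14.4%, 8.89% to 21.6%). Of all 2399 distal places called in LPS cells, 29.4% were IRF8 alone (27.6% to 31.3%), 56.9% IRF4 alone and 13.7% both. Of 360 composite places, 96 were IRF8 alone (26.7%, 22.2% to 31.6%), 159 IRF4 alone and 105 both (29.2%). Of 456 AP-1 places, 31 were IRF8 alone (6.8%, 4.67% to 9.51%), 378 IRF4 alone (82.9%) and 47 both. The lengths of the lists enter these shares, since IRF4 had 1573 peaks at 48 h and IRF8 had 234. A place enters through a member peak and is then called for that factor by construction. The member shares therefore follow in part from the 76 and 7 IRF8 members and the 31 and 42 IRF4 members at 72 h and 48 h. They also include 11 arrays, all in IRF8 lists and in no IRF4 list.

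The IRF8 members and the IRF4 72 h members were found in the GC list more often than distal peaks of the same lists at large. Their intervals overlapped those of peaks of the same lists with the composite alone or the AP-1 consensus alone. By place the share is partly fixed by the selection. A place can be a member through its GC peak alone, and it then overlaps a GC interval by construction. A GC interval overlapped 25 of the 65 places called for IRF8 alone (38.5%, 26.7% to 51.4%), against 81 of the 706 distal places called for IRF8 alone in LPS cells (11.5%, 9.22% to 14.1%). For places called for IRF4 alone it was 8 of 48 (16.7%, 7.48% to 30.2%), against 9.16% of all such distal places. By peak, 29 of 76 IRF8 72 h members were in the GC list (38.2%, 27.2% to 50%), against 17.3% of all distal IRF8 72 h peaks. In the same list it was 48 of 184 peaks with the composite alone (26.1%) and 14 of 60 with the AP-1 consensus alone (23.3%). Peaks with none of these elements were lower, at 59 of 597 (9.88%). Of the members with arrays, 10 of 11 at IRF8 72 h were in the GC list. Without them it was 19 of 65 (29.2%, 18.6% to 41.8%), against 16.2% (13.9% to 18.8%) of distal peaks without arrays, and these intervals just overlap.

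At 72 h, 10 of 76 IRF8 members were under an IRF4 peak (13.2%, 6.49% to 22.9%), against 23.3% (20.6% to 26.1%) of all distal IRF8 peaks. Without arrays it was 10 of 65 (15.4%, 7.63% to 26.5%), against 23.6% (20.9% to 26.5%). In both cases the intervals overlap. Between times, 12 of 31 IRF4 72 h members were also called at 48 h (38.7%, 21.9% to 57.8%), against 63.8% of all distal IRF4 72 h peaks. Of the 7 IRF8 48 h members, 5 were called at 72 h (71.4%, 29.0% to 96.3%), near the 57.1% of all distal IRF8 48 h peaks. These were the 3 members with arrays and the Slc22a8 and Il2rb places.

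Members matched the median height of distal peaks at IRF8 72 h, and stood lower at IRF4 72 h. The deposited tag count, scaled to 10000000 tags per library, had a median of 32.6 at IRF8 72 h (26.1 to 120.7), 36.6 at IRF8 48 h (22.9 to 45.7), 26.6 at IRF4 72 h (23.9 to 69.0) and 35.3 at IRF4 48 h (23.6 to 82.4). All distal peaks had medians of 32.6, 27.4, 31.9 and 38.3 in the same 4 lists. The IRF4 72 h member median equals the lower quartile of its distal peaks, 26.6, and the IRF8 48 h member median, of 7 peaks with 3 arrays, equals the upper quartile, 36.6. None of the members came near the highest distal peak of its list, 1762 tags at IRF8 72 h.

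The Stoml1 place was the highest of the places called for both factors. It lies 18.2 kb downstream of the start of Stoml1, a stomatin-like membrane protein, between genes. IRF8 had 91.3 tags there at 72 h, and IRF4 had 69.0 at 72 h and 82.4 at 48 h. It was called in GC B cells and not for IRF8 at 48 h. The 3 counts lay within each other's 95% Poisson intervals.

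The Oxr1 place, in an intron 1.60 kb downstream of a start of a gene that protects against oxidative stress, had 32.6 IRF8 tags at 72 h, and 42.5 and 38.3 IRF4 tags at 72 h and 48 h. It was the only place called in 4 lists whose peak met the rule in all 4. The Mrpl39 place, 114 kb from the start of a mitochondrial ribosomal protein gene, had 39.1 IRF8 tags at 72 h, and 42.5 and 35.3 IRF4 tags at 72 h and 48 h. Both carry the CT spacer, and neither differed between lists beyond counting error.

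Il2rb, the shared beta chain of the interleukin-2 and interleukin-15 receptors, had a place 15.3 kb upstream that was called for IRF8 at both times. IRF8 had 52.2 tags at 72 h and 36.6 at 48 h, and IRF4 had 26.5 at 48 h. It was called in GC B cells and not for IRF4 at 72 h. The fifth place in 4 lists, 55.5 kb from Rnft1, had 29.4 IRF8 tags at 72 h, and 29.2 and 41.2 IRF4 tags at 72 h and 48 h, with its core 72.5 bp from the GC centre.

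**Figure D4:**
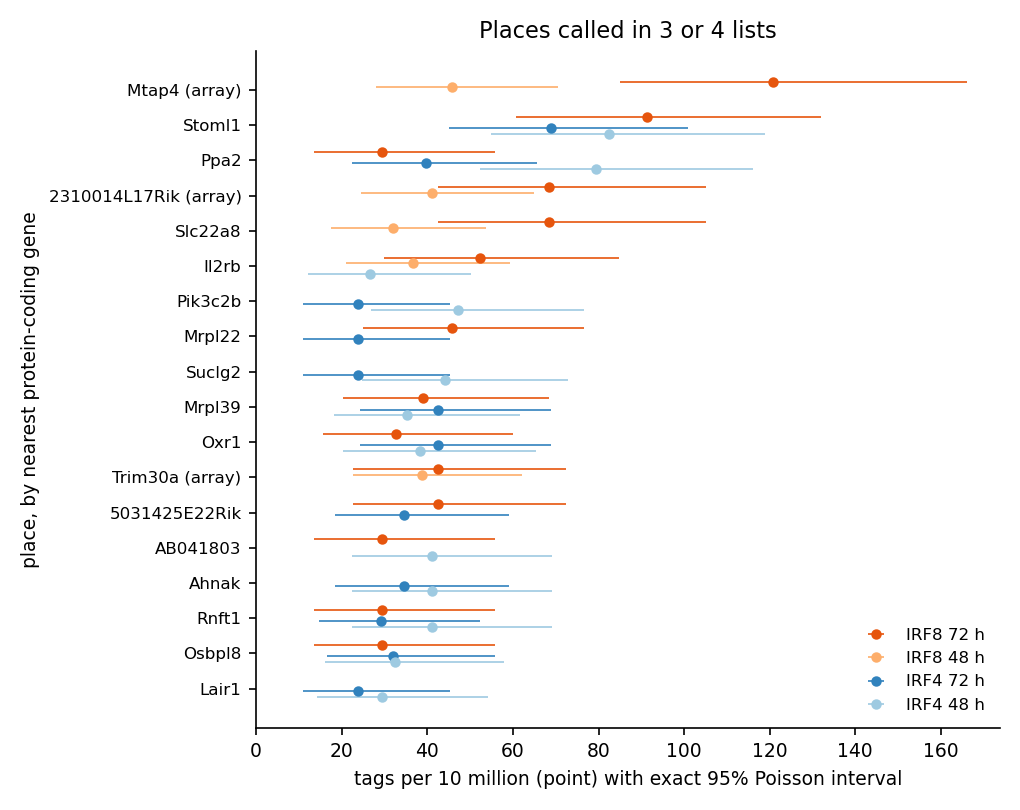
Tags scaled to 10000000 per library (x axis) with exact 95% Poisson intervals in the LPS lists at the 18 member places called in 3 or 4 lists, each named by the nearest protein-coding gene (y axis). A missing point means that the list had no peak there. The array in Mtap4, a microtubule-associated protein gene, has the highest value, 120.7 for IRF8 at 72 h against 45.7 at 48 h.

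Several other places were called for 1 factor in LPS cells, or for each factor at another time. The Hes1 array, 31.6 kb upstream of a Notch-induced repressor, had 65.2 IRF8 tags at 72 h and a GC peak. Trafd1, a negative regulator of innate immune signalling, had 48.9 IRF8 tags at 72 h in an intron 1.22 kb from its start, and a GC peak. Zbtb1, a lymphoid transcription factor, had 39.8 and 61.8 IRF4 tags at 72 h and 48 h in an intron and no IRF8 peak. Stambpl1, a deubiquitinase, had 65.2 IRF8 tags at 72 h and 32.4 IRF4 tags at 48 h in an intron. The array in Herc1, a ubiquitin ligase, had 58.7 IRF8 tags at 72 h and a GC peak. A place in an intron of Pik3c2b, a class II phosphoinositide kinase, had 23.9 and 47.1 IRF4 tags at 72 h and 48 h and a GC peak. The place nearest to Eci2, 104 kb away, had 45.1 and 38.3 IRF4 tags at 72 h and 48 h, and that nearest to AW146154 had 25.1 IRF8 tags at 48 h alone. The widest GC member, 3566 bp near Ppp6r1, held 4 units in tandem, and the narrowest, 539 bp far from Cdh9, held 15.

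A group of 4 places between genes held nearly the same sequence around the core, and all were IRF8 72 h members. They were found by a search for 24-base words shared between members and were picked from 5 such groups after their values were seen. The core is in capitals.
Slc22a8 (chr19:8592869-8592908, + strand): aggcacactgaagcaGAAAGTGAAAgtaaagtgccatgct
Gm11232 (chr4:70953016-70953055, - strand): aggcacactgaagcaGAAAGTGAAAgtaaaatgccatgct
Ccdc66 (chr14:28376024-28376063, - strand): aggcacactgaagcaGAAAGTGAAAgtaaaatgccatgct
Vmn2r83 (chr10:78879963-78880002, + strand): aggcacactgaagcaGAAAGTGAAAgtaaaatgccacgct

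The longest word that holds the core and is common to the 4 places has 33 bases and occurs 6 times in the genome. All 4 places were under IRF8 72 h peaks, with 68.5 tags at Slc22a8, 52.2 at Gm11232, 39.1 at Ccdc66 and 29.4 at Vmn2r83. Slc22a8 had 32.0 tags at IRF8 48 h, the other 3 had no peak there, and none of the 6 copies was under an IRF4 peak. GC peaks lay over 3 of the 4, all but Ccdc66. These places are at least 51.6 kb from the nearest start of a protein-coding gene.

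Tags were set side by side where peaks of both lists compared overlapped, and a pair counts as a member where either peak is one. Between 72 h and 48 h, IRF8 members numbered 5, and their log2 ratios had a median of 0.74, against 0.59 for all 138 pairs, those near a start included. A 2-fold difference in either direction was reached by 2 of the 5, against 15.2% of all pairs. The exact interval of the ratio left out 1 for 2 of the 5, against 24.6% of all pairs, and the adjusted exact binomial test of the tag numbers, which compares these libraries only, called 1 of the 5, against 12.3%. Both were higher at 72 h: the Mtap4 array, with 120.7 tags at 72 h and 45.7 at 48 h (ratio 2.64, exact interval 1.49 to 4.8), and Slc22a8, with 68.5 at 72 h and 32.0 at 48 h (2.14, 1.04 to 4.55). Once ratios were centred on the median of all single-copy pairs, none of the 5 reached 2-fold.

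For IRF4 between 72 h and 48 h, 14 members had a median log2 ratio of -0.27, against -0.39 for all 536 pairs. None reached 2-fold, against 13.6% of all pairs. The interval left out 1 for 1 of the 14, against 12.7%, and the adjusted binomial test called none, against 2.61%. The pair nearest to 2-fold was Ppa2, a mitochondrial pyrophosphatase gene whose intron had 39.8 tags at 72 h and 79.5 at 48 h (ratio 0.501, 0.248 to 0.976). Mrpl39 stood at the other end, with 42.5 tags at 72 h and 35.3 at 48 h (1.2, 0.534 to 2.79).

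Between the factors at 72 h, 11 members had a median log2 ratio of IRF8 over IRF4 of 0.01, against 0.04 for all 258 pairs, and none reached 2-fold, against 6.2% of all. None was called by the interval, against 6.59%, or by the adjusted binomial test, against 0.388%. They ranged from Ppa2, with 29.4 IRF8 and 39.8 IRF4 tags, to Mrpl22, with 45.7 IRF8 and 23.9 IRF4 tags (ratio 1.91, 0.77 to 5.01). At 48 h only 2 members were called for both factors. Nek7, a kinase of the NLRP3 inflammasome, had 27.4 IRF8 and 58.9 IRF4 tags (ratio 0.465, 0.208 to 1) and was the 1 that reached 2-fold, against 25.4% of all 122 pairs. Neither was called by the interval, against 25.4%, or by the adjusted binomial test, against 18% of all pairs. Centred on the median of all single-copy pairs, Nek7 no longer reached 2-fold and Il2rb did in the other direction. Il2rb had 36.6 IRF8 and 26.5 IRF4 tags (1.38, 0.574 to 3.54).

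**Figure D5:**
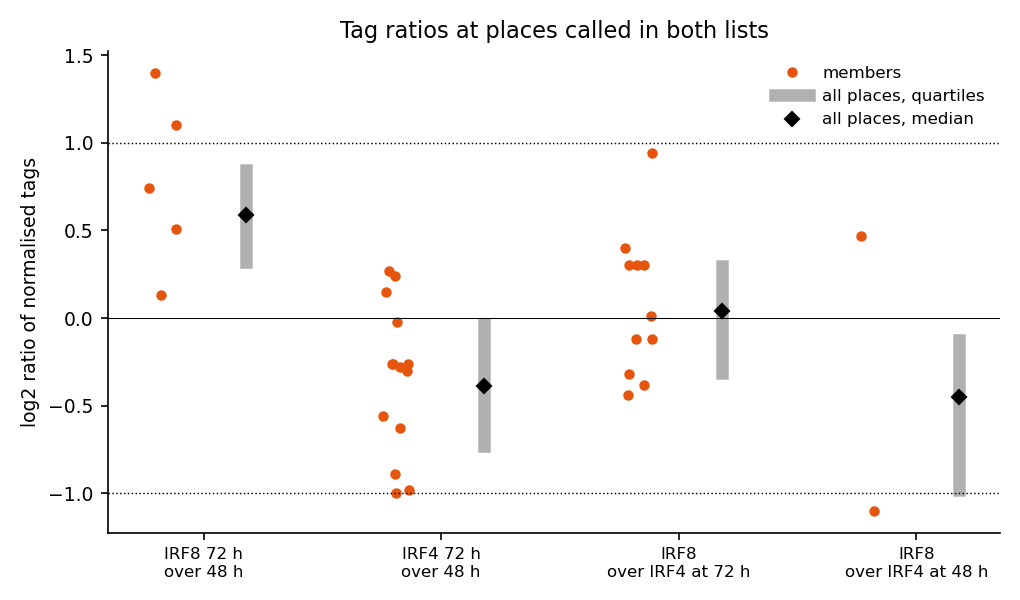
Log2 ratio of normalised tags (y axis) at places called in both lists, for 4 comparisons (x axis), with each member as a point, and the median (diamond) and quartiles (bar) of all pairs beside it. Dotted lines mark 2-fold. The 11 members of IRF8 over IRF4 at 72 h all lie inside the lines, and the 2 IRF8 members above 2-fold at 72 h over 48 h are Mtap4 and Slc22a8.

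Distal places of any kind near genes of the interferon response were few, with 4 antiviral genes and 4 GTPase genes that had one. Taking the gene with the nearest start within 50000 bp, 1 of 62 listed interferon-stimulated antiviral genes had a member place (1.61%, Trim30a), and so did 1 of 22 interferon-induced GTPases (4.55%, Gbp2, where an array of 8 units with AA spacers lay 25.8 kb from the start in GC B cells). None of 23 genes of MHC class I processing and none of 13 of class II presentation had one. Over all 17 lists it was 9 of 369 genes (2.44%), against 192 of all 22238 protein-coding genes (0.863%). Among genes with any distal place it was 9 of 110 (8.18%), against 192 of 2076 (9.25%), so the listed genes stood near the background of distal peaks. The lists of B cell receptor signalling, B cell surface, apoptosis, cell cycle, Toll-like receptor and AP-1 genes held none.

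Of the 9 listed genes with a member place, 5 encode transcription factors that act in the B lineage. The lists include sets of such factors, so this count depends on the lists chosen. Among genes with any distal place, member places were at 3 of 15 B lineage factors, 2 of 13 IRF and STAT family genes and 1 of 7 plasma cell genes. The share over all such genes was 9.25%, and these small counts were not tested against it. Irf4 had 2 upstream places, 10.8 kb from its start in GC B cells and 16.4 kb from it with 53.0 IRF4 tags at 48 h. Prdm1 also had 2, 1.15 kb upstream of a start in GC B cells and in an intron with 44.2 IRF4 tags at 48 h. No place of either gene was in a second list. Bach2, which holds back plasma cell formation, had 23.6 IRF4 tags at 48 h, Runx1 32.4 IRF4 tags at 48 h and Etv6 32.6 IRF8 tags at 72 h. Cd86, a co-stimulatory ligand, had a GC place in an intron. Socs1, an inhibitor of cytokine signalling, had 26.1 IRF8 tags at 72 h and a GC peak at a place with the GT spacer, in an intron of the neighbouring Clec16a 44.2 kb away.

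By annotation, 125 of the 268 places lay in introns (46.6%), 141 between genes (52.6%), 1 in a coding and 1 in a non-coding exon. Arrays were in introns in 31 of 63 cases and other places in 94 of 205. A gene start lay within 50000 bp of 196 places (73.1%, 67.4% to 78.3%), and per list 69.7% to 85.7% of members had one, against 73.5% to 78.6% of all distal peaks.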

How the data were processed

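The 4 LPS peak lists were made by the authors with HOMER findPeaks in factor mode, per the file headers (500 bp peaks, false discovery rate 0.001, 4-fold over the local 10000 bp). Their signal is the normalised tag count per 10000000 tags, per the file headers. The deposited findPeaks score, the ratio columns (fold over local region and clonal fold), the p-value and the focus ratio, a fraction, are the authors' own and were not tested. The GC intervals were deposited as positions, called with MACS per the series' design text in the labels. The submitters' processing notes name BWA, Bowtie2 and mm9. The aligner used for each list is not given in the sources used here.

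Start sites were those of every transcript of protein-coding genes in GENCODE M1. Motifs were searched in the NCBIM37 genome with python 3.11.15. Lists were compared by overlap of at least 1 bp. Whole tag numbers were recovered for 100% of LPS peaks within 0.05 and gave exact Poisson and conditional binomial intervals; shares have Clopper-Pearson intervals at 95%, which cover counting error only. Scripts were checked on simulated data. A ratio was called at 2-fold. Windows with a median 24-base word count above 1 were multi-copy. The reference genome was not soft-masked, so masked sequence is not reported.

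Named places were the 10 highest single-copy places, those in 4 or more lists, up to 12 in GC and LPS lists, up to 3 per gene list, the 3 highest members per LPS list, and the widest and narrowest GC member. The CA arrays, the shared-word places and any other gene named were chosen after their values were seen. One of the places that the rule names is not reported here. The members and lists were chosen with earlier results of these data known. Tried alternatives were other distances, start sites, windows, overlaps, thresholds, list lengths, scalings, calls and flanks, single-copy peaks, and windows without arrays.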

Additional observations from a re-analysis of the deposited data

How the results depend on the processing

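Of 153 recomputed values, 118 stayed within the interval of the value reported or on its side. The member share moved with the window: with 50 bp on either side it was 7.66% in GC, 6.04% at IRF8 72 h and 1.69% at IRF4 48 h, and over the whole interval 20.1%, 10.6%, 6.25% at IRF4 72 h and 5.63% at IRF4 48 h. Without the exclusion of the composite and AP-1 it was 14.8% in GC, 6.90% at IRF4 72 h and 4.65% at IRF4 48 h. GC shares were 9.58% over single-copy peaks and 7.51% without arrays. The excess over the flanks in GC, 8.59 points, was 6.32 with 50 bp windows and 4.79 without arrays. At IRF4 72 h it was 0.856 points, and 2.12 with 50 bp windows. At IRF4 48 h it was 0.101 points and turned to -0.258 with flanks 5000 bp away. At IRF8 48 h it was 0.705 points and turned to -0.335 over single-copy peaks and to -0.733 without arrays. The single-copy and array alternatives for this excess, the array alternative for shares and sharing, and start sites of protein-coding transcripts alone were added after seeing the data.

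With LPS lists shortened to 234 peaks each, sharing moved to 63.2% for IRF8 72 h members in GC, 26.3% in IRF8 48 h, 75% for IRF4 48 h members in IRF4 72 h and 25% in IRF8 48 h, 0% for IRF8 48 h members in IRF4 48 h, and 3.92% for GC members in any LPS list. Over single-copy members, 27.0% of IRF8 72 h members were in GC. Centred on the median of all single-copy places, the median log2 ratio turned to 0.13 for IRF4 72 h over 48 h, to 0.25 for IRF8 over IRF4 at 48 h and to -0.021 at 72 h, and was 0.088 for IRF8 72 h over 48 h, where then 0 members were called. At 48 h the 1 member called for IRF8 over IRF4 was then Il2rb, higher, in place of Nek7, lower. Over single-copy places the ratio at 72 h was 0.15, and 1 IRF8 72 h member was called. By the interval of the ratio 1 IRF4 72 h member (Ppa2) and 0 IRF8 members at 48 h were called. By the adjusted exact binomial test 1 IRF8 72 h member (Mtap4) and 0 IRF8 members at 48 h were called. The cause of these moves was not tested.

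No paired analysis was possible because each group is 1 library, and no library was left out for the same reason. The members of the LPS lists rest on 8 to 37 whole tags each, which limits every ratio and level: the interval of the Il2rb ratio for IRF8 (72 h over 48 h, 1.43) runs from 0.668 to 3.05.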
